A study of Mus musculus with 36 samples.

Results

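The Myc locus was followed through the DNase hypersensitive sites (DHS, stretches of open chromatin that the enzyme DNase I cuts) on mouse chromosome 15 between 61.5 and 64.0 Mb in the mm10 build. All DHS lying wholly inside these bounds were taken, which gave 45 of the 52788 DHS of the series. The 45 comprise the DHS on the Myc promoter, others upstream of it and those along or just before the neighbouring non-coding gene Pvt1. Also included are those of the gene-poor stretch downstream of Pvt1 and those at the Gsdmc genes and Fam49b beyond it. The 36 DNase-seq libraries came from B3 cells, a line of mouse pre-B cells. The Ikaros cells carry a retroviral MSCV vector for HA-Ikaros-ERt2, a fusion of Ikaros, a zinc finger transcription factor, to the estrogen receptor's ligand domain, which enters the nucleus with 4-hydroxytamoxifen (4-OHT), followed by IRES-GFP. The Control cells carry ERt2-IRES-GFP without Ikaros. Cells of each line were collected at 0, 2, 6, 12, 18 and 24 h, and every one of the 12 groups held 3 replicates. Both lines are pools of infected B3 cells sorted for GFP. The fusion protein comes on top of any Ikaros made by the cells themselves, whose amount was not measured here. Per the labels 4-OHT was used at 0.5 µM in all groups, whereas by the study's methods no drug was given to the 0 h cells, which were obtained separately. The 0 h state and that separate collection therefore cannot be told apart in any comparison between 0 h and later times.

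Myc encodes a transcription factor that pairs with Max on E-box sequences and drives ribosome production, metabolism and division. In B cell progenitors it is abundant in cycling large pre-B cells and is lowered when these cells stop dividing, a step in which Ikaros takes part. The gene sits in a wide region with few other protein-coding genes, and in blood cells part of its regulation comes from enhancers scattered far downstream, beyond Pvt1.

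Each DHS is named here by the distance of its centre from the Myc transcription start site (TSS) in kb, positive values lying downstream in the direction of Myc transcription. The Myc promoter DHS, at chr15:61985170-61985735, covers the TSS and the start of the first exon. Sequences of 300 bases at the centre of 4 distal DHS are shown because the results turn on them. The +1426 kb and +1663 kb DHS were the distal DHS whose values followed the Myc promoter most closely, the +1651 kb DHS differed between the lines at 18 h, and the +1667 kb DHS was the most accessible of the window. They were read from the plus strand of GRCm38, the assembly also called mm10, 5′ to 3′, at chr15:63411113-63411412, chr15:63636706-63637005, chr15:63648204-63648503 and chr15:63652574-63652873 in that order of position. Capitals mark the core letters GGGAA that Ikaros is known to bind, on either strand (TTCCC on the strand shown).
+1426 kb: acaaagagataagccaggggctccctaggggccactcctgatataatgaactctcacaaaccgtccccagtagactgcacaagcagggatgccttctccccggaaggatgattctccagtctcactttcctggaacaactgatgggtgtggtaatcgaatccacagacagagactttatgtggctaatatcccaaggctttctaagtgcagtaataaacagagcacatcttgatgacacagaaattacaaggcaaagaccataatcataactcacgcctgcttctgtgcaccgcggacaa
+1651 kb: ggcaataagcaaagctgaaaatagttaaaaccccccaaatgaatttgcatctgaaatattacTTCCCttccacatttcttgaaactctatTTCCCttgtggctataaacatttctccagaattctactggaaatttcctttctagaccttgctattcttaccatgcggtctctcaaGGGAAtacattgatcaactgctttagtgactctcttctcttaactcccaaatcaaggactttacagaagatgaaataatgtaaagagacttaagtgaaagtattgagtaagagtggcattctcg
+1663 kb: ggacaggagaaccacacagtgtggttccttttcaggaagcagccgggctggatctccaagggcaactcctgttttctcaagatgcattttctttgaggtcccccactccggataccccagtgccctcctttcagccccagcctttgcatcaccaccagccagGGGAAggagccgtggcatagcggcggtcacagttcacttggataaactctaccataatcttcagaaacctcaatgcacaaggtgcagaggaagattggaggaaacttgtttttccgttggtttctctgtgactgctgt
+1667 kb: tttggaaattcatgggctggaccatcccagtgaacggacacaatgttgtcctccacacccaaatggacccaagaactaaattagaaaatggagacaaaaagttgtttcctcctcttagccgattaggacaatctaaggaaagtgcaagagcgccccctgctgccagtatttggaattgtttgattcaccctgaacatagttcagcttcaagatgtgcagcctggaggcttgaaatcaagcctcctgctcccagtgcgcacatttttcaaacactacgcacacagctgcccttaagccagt
The core occurred 3 times in the +1651 kb stretch, 1 time in the +1663 kb stretch and 0 times in the other two. All 4 lie in introns of Gm41335, a long non-coding RNA gene. No sequence is shown for the promoters of Myc, Pvt1 and Fam49b.

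The values are log2 of normalised read density, so that a difference of 1 is a doubling of density. Library medians over all DHS lay between 3.90 and 4.11, and the depth of each library is not given beyond a minimum that the study's methods state. The B-lineage genes Cd79a, Cd79b, Pax5, Ebf1, Vpreb1 and Igll1 each had a DHS within 1000 bp of a TSS, and of 9 genes of other cells 1, Klf1, had one. The 12 group means span 6 of 11 possible dimensions after the authors' noise removal, so the groups are not independent of each other.

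Accessible sites were spread unevenly over the window. Of the 45 DHS, 8 were promoter DHS (within 1000 bp of a TSS), 29 lay in introns, 1 in an exon and 7 between genes. With a limit of 500 bp in place of 1000 bp, 6 were promoter DHS. Upstream of the Myc promoter lay the -2 kb DHS (chr15:61983198-61983698) on the promoter of Gm37947, with a mean of 4.58, and the -444 kb DHS, and the 441.9 kb between this pair held none. Downstream, 9 DHS with a median level of 3.67 lay along Pvt1 or, at +47 kb, between genes just upstream of it. A further 11 lay between 0.42 and 1.43 Mb with a median of 3.50 and none above 4.04. That middle stretch held an interval of 446.0 kb with no DHS.

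A dense group of 16 DHS followed within 212.8 kb, between 1.57 and 1.79 Mb from the Myc TSS. Their median level was 4.22 and their highest 5.50. The last 6 DHS lay at the genes Gsdmc2, Gsdmc3, Gsdmc4, which encode gasdermins, and Fam49b, with a median of 3.37. These zones were drawn by position after the DHS had been seen.

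**Figure D1:**
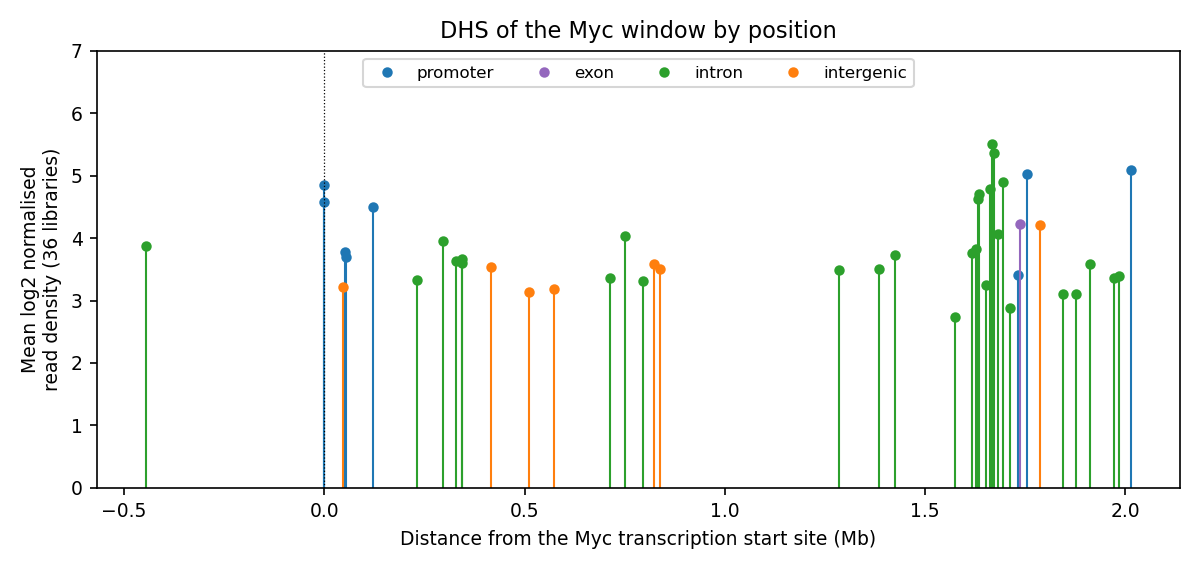
Mean log2 normalised read density over the 36 libraries (y axis) of each of the 45 DHS against its distance from the Myc transcription start site in Mb (x axis, downstream to the right), coloured by annotation class, with vertical lines down to 0. The +1667 kb DHS at 5.50 is the highest point, in the dense group between 1.57 and 1.79 Mb.

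The Myc promoter was not the most accessible site of its own window. Its mean of 4.85 over the 36 libraries ranked 6th of 45, at the 86.4th percentile of all DHS and the 63.5th percentile of promoter DHS. The +1667 kb DHS (chr15:63652464-63652982) averaged 5.50, at the 96.5th percentile of all DHS, and the +1673 kb DHS 5.37. The Fam49b promoter, at +2013 kb, averaged 5.09 and the promoter of the non-coding gene Gm41336, at +1755 kb, 5.02. The +1694 kb DHS averaged 4.90 and the +1663 kb DHS 4.78. The lowest means were 2.73 at +1574 kb and 2.88 at +1713 kb, both inside the dense group. In the 17 DHS of at most 200 bp the median SD between replicates was 0.48, against 0.26 in the 28 wider ones. For the Myc promoter from 2 to 24 h it was 0.19 in Control and 0.10 in Ikaros cells, beside 0.37 and 0.21 for the window as a whole.

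Myc promoter accessibility was higher in Ikaros than in Control cells at 0 h and lower at 12 h and 24 h. At 0 h, Control libraries read 4.85, 4.91 and 4.69 in replicates 4, 5 and 6, and Ikaros libraries 5.26, 5.04 and 5.41. All 3 Ikaros values lay above all 3 Control values at that time. The order was turned at 2 h, with 5.36, 5.07 and 5.01 in Control and 4.66, 4.70 and 4.79 in Ikaros cells, and the groups again did not overlap. At 6 h the values were 5.10, 5.05 and 5.00 in Control and 4.76, 4.70 and 4.80 in Ikaros cells. At 12 h they were 4.97, 5.16 and 5.20 in Control and 4.26, 4.60 and 4.52 in Ikaros cells. Ikaros 12 h replicate 4 was the lowest of all 36 libraries. At 18 h the groups overlapped, with 4.54, 5.14 and 4.82 in Control and 4.50, 4.64 and 4.63 in Ikaros cells. At 24 h they read 5.16, 4.83 and 5.10 in Control and 4.33, 4.47 and 4.50 in Ikaros cells, without overlap.

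**Figure D2:**
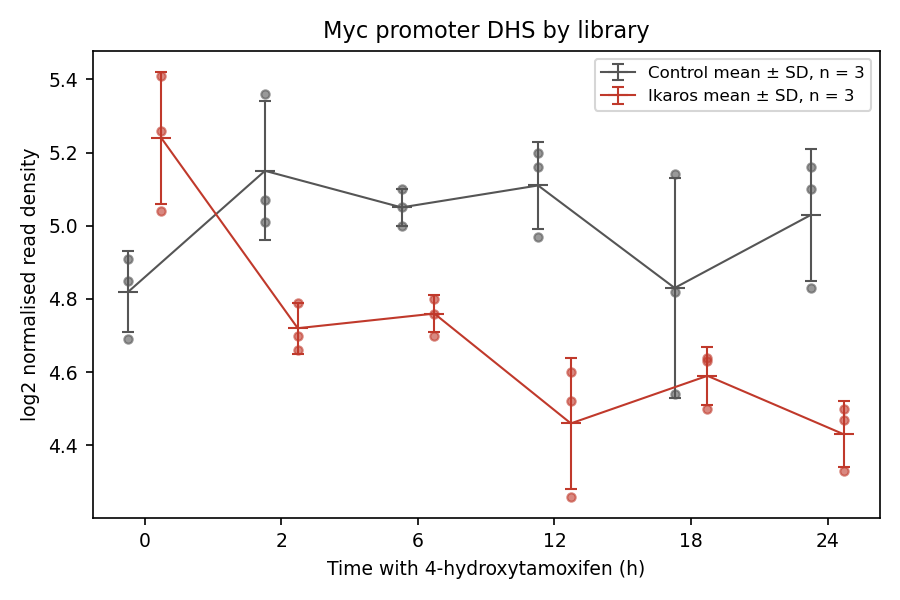
Log2 normalised read density of the Myc promoter DHS (y axis) by time with 4-OHT in h (x axis) in Control (grey) and Ikaros (red) cells; points are libraries, horizontal marks means and bars SD (n = 3). The Ikaros mean is 5.24 at 0 h and 4.43 at 24 h, while the Control means lie between 4.82 and 5.15.

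Ikaros minus Control at the Myc promoter was 0.42 (SE 0.14) at 0 h, with a limma adjusted p of 0.0495. Over all 13657 promoter DHS the median difference at 0 h was 0.34, and 23.1% were lower in Ikaros cells. With a replicate block the 0 h value was the same and its limma adjusted p 0.0611, above the threshold of 0.05. At 2, 6, 12, 18 and 24 h it was -0.43, -0.29, -0.65, -0.24 and -0.60, each with an SE of 0.14. The limma adjusted p-values were 0.23, 0.361, 0.0222, 0.501 and 0.0321 in that order. Thus 12 h and 24 h passed the test with lower values in Ikaros cells, and 2, 6 and 18 h did not. Within replicate numbers 4, 5 and 6, which the labels tie to batches 11, 12 and 13, the difference was 0.41, 0.14 and 0.72 at 0 h. It was -0.71, -0.56 and -0.69 at 12 h, and -0.83, -0.36 and -0.60 at 24 h. The lines did not overlap at these times, so the direction within each batch was bound to be that of the pooled value.

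The 0 h difference turned to -0.01 (limma adjusted p = 0.974) once trends with level, GC content and width were removed from each library, and the calls at 12 h and 24 h were then lost at -0.42 and -0.43. The Myc promoter DHS has a GC content of 63.2%. Single libraries also decided the calls. The one at 0 h was lost without Control or Ikaros replicate 4 or 6 (0.34 to 0.44), the one at 12 h without Control replicate 5 or 6 or Ikaros replicate 4 or 6 (-0.68 to -0.55), and the one at 24 h without any library but Control replicate 5 (-0.63 to -0.53).

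The difference between the lines moved by -1.02 (SE 0.20) from 0 h to 24 h, with a limma adjusted p of 0.00846. The moves within replicates 4, 5 and 6 were -1.24, -0.50 and -1.32. Over all 13657 promoter DHS the median move was -0.42. The call held without any single library, but was lost without replicate 4 (-0.91, limma adjusted p = 0.0557) or 6 (-0.87, 0.167) of all groups, with only the groups compared in the fit (0.0642), and with the trends removed, where the move was -0.42 (0.258). From 2 h to 24 h, which leaves the separately collected 0 h cells out, the move was -0.17 (SE 0.20, limma adjusted p = 1.0). Over all 6 times the interaction of line and time gave F = 7.32 (limma adjusted p = 0.0306), and F = 6.90 with a replicate block (0.0503). Time alone gave F = 8.46 in Ikaros cells (limma adjusted p = 0.00975) and F = 1.92 in Control cells (0.526). Without the 0 h libraries, an alternative added after the data had been seen, the Ikaros F was 2.11 and the interaction F 1.58, both with a limma adjusted p of 1.0.

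Ordered by mean, the 12 groups ran from Ikaros 0 h at 5.24 ± 0.18 (SD, n = 3 in each group) to Ikaros 24 h at 4.43 ± 0.09. After Ikaros 0 h came the Control groups of 2 h (5.15 ± 0.19), 12 h (5.11 ± 0.12), 6 h (5.05 ± 0.05), 24 h (5.03 ± 0.18), 18 h (4.83 ± 0.30) and 0 h (4.82 ± 0.11). All Ikaros groups from 2 h onwards stood below every Control group, with means of 4.76 ± 0.05 (6 h), 4.72 ± 0.07 (2 h), 4.59 ± 0.08 (18 h) and 4.46 ± 0.18 (12 h) above that of 24 h. Neighbours in this order differed by less than the larger of their SDs, except Ikaros 2 h and 18 h, whose gap was 0.13.

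Across the window few DHS passed the test. At 0 h, 5 of 45 passed, all higher in Ikaros cells, where 12.9% of all DHS passed in either direction, so the window's share of 11.1% was near the background. No DHS passed at 2 h or 6 h, where the background was 0.195% and 0.578%, and 6 and 7 had an unadjusted limma p under 0.05, as did 10.0% and 13.8% of all DHS. At 12 h the Myc promoter was the 1 DHS that passed (background 1.31%), at 18 h it was the +1651 kb DHS (0.699%) and at 24 h again the Myc promoter (1.33%). The change from 0 h to 24 h passed in 3 DHS, all negative (background 6.26%), and that from 2 h to 24 h in 0 DHS (0.0%), with 3 at an unadjusted limma p under 0.05, as had 2.85% of all DHS. The interaction passed in 1 DHS (background 1.1%), time in Ikaros cells in 2 (2.29%) and time in Control cells in 0 (0.148%), with 7 at an unadjusted limma p under 0.05, as had 12.6% of all DHS. Counts of 0 to 3 among 45 DHS are too small to be set apart from these shares.

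The median difference of the window stood above that of all DHS at 5 of 6 times. Over the 45 DHS the median difference between the lines was 0.19, 0.06, 0.11, 0.11, 0.01 and 0.12 at 0, 2, 6, 12, 18 and 24 h. Over all DHS it was -0.06, 0.01, 0.00, 0.05, 0.03 and 0.06. Libraries of the lines did not overlap in 12, 8, 7, 8, 14 and 10 of the 45 DHS at these times. The share of all DHS without overlap was 23.6%, 13.6%, 22.0%, 22.7%, 23.2% and 25.5%, so the window's counts stood near the background. Ikaros cells had the higher mean at all 6 times in 12 of 45 DHS and the lower at all 6 in 3, where 12.5% and 10.8% of all DHS did so.

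**Figure D3:**
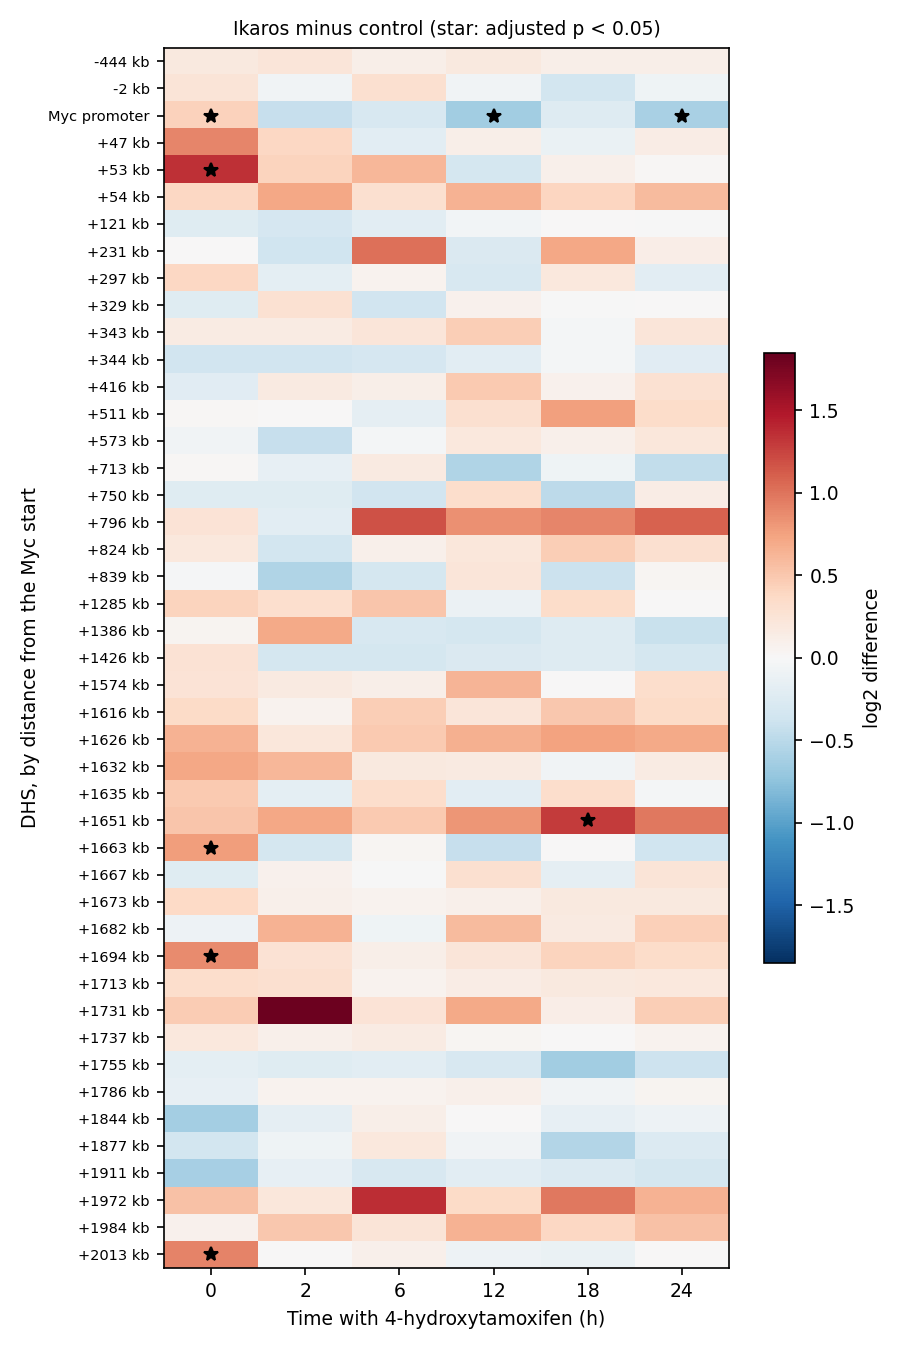
Ikaros minus Control log2 difference (colour, red higher in Ikaros cells) for each of the 45 DHS (y axis, ordered by distance from the Myc start) at each time with 4-OHT in h (x axis); a star marks a limma adjusted p under 0.05. The Myc promoter is red at 0 h (0.42) and blue at 12 h (-0.65) and 24 h (-0.60), while the +1651 kb DHS is red at all 6 times.

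Pvt1, a long non-coding RNA gene whose start faces the same way as Myc, had a pair of DHS within 1000 bp of a TSS. The +53 kb DHS (chr15:62037921-62038051), 130 bp wide, read 2.70, 2.96 and 2.90 in Control 0 h and 4.77, 3.83 and 4.01 in Ikaros 0 h libraries. All Ikaros values were above all Control values, and the difference of 1.35 (SE 0.38) had a limma adjusted p of 0.0179. Ikaros replicate 4 was the highest of these, and without it the difference was 1.07 and did not pass. The call was also lost without Control replicate 4 (1.28) or 6 (1.37), and with the trends removed the difference was 0.28. At 24 h the difference was 0.02 (SE 0.38).

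The neighbouring +54 kb DHS (chr15:62038838-62039449) had a higher mean in Ikaros cells at all 6 times, by 0.29 to 0.72. At 24 h it read 3.53, 3.44 and 3.17 in Control and 4.02, 4.03 and 3.86 in Ikaros cells. The lines did not overlap at 5 of 6 times, yet no time passed the test, the limma adjusted p at 12 h being 0.124. Its Ikaros means stayed between 3.89 and 3.98.

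In the dense downstream group, the median difference between the lines over its 16 DHS was 0.37, 0.13, 0.11, 0.19, 0.15 and 0.22 at the 6 times. Ikaros cells had the higher mean in 12, 13, 13, 13, 10 and 13 of the 16. Of all DHS, 45.6%, 51.3%, 50.4%, 54.8%, 52.9% and 56.0% had the higher mean in Ikaros cells at these times. The Myc promoter had the lower mean in Ikaros cells at the last 5 of these times, when the median of the group stood above 0. Over all 13657 promoter DHS the median difference was -0.02, 0.08, -0.11, -0.03 and -0.05 at those 5 times. Of the 16, 2 are promoter DHS, and the one at +1755 kb had the lower mean in Ikaros cells at all 6 times. No test was made of this contrast as a group, because the zone was drawn after the DHS had been seen.

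The +1663 kb DHS (chr15:63648053-63648654) had line differences of the same sign as the Myc promoter at 0 h and 24 h. At 0 h it read 4.99, 4.96 and 4.62 in Control and 5.77, 5.48 and 5.63 in Ikaros cells. At 24 h it read 4.95, 4.50 and 4.80 in Control and 4.36, 4.38 and 4.38 in Ikaros cells. The Ikaros libraries were thus above all Control libraries at the start and below them at the end. At 2, 6, 12, 18 and 24 h the difference was -0.33, 0.03, -0.42, -0.0 and -0.37 (SE 0.19 each). None of these passed (limma adjusted p = 0.354 at 24 h), and the lines overlapped at 2, 6 and 18 h.

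Its difference was 0.77 (SE 0.19, limma adjusted p = 0.00801) at 0 h and moved by -1.14 (SE 0.26, limma adjusted p = 0.0153) from 0 h to 24 h. Within replicates 4, 5 and 6 the move was -1.36, -0.64 and -1.43. Time in Ikaros cells gave F = 12.9 (limma adjusted p = 0.00185), and without the 0 h libraries F = 2.89 (1.0). The interaction had a limma adjusted p of 0.0587. The 0 h call was lost in 4 of 16 alternatives (limma adjusted p up to 0.153), among them without Control replicate 6 (0.65). The call of the move was lost in 5 of 22 (up to 0.175). With the trends removed the move was -0.98 (limma adjusted p = 0.0621). The call for time in Ikaros cells was lost in 4 of 11.

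The most accessible DHS, at +1667 kb, did not pass any test. Control means lay between 5.35 and 5.76 and Ikaros means between 5.12 and 5.69. The difference was -0.23 (SE 0.27) at 0 h and 0.24 (SE 0.27, limma adjusted p = 0.755) at 24 h. Its Control libraries spread widely at 6 h, from 4.56 to 6.20, while those of Ikaros cells lay between 5.30 and 5.66.

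Set against it within each library, the Myc promoter was 0.12 ± 0.22 higher in Ikaros 0 h cells and lower by 1.26 ± 0.15 in Ikaros 24 h cells (SD, n = 3). In Control cells the promoter minus this DHS was -0.54 ± 0.23 at 0 h and -0.43 ± 0.24 at 24 h. Set against the +1663 kb DHS, the promoter was -0.39 ± 0.15 in Ikaros 0 h and 0.06 ± 0.08 in Ikaros 24 h cells. The +1663 kb DHS was taken for its likeness to the promoter over these same libraries. A steadier distance to it was therefore built in by that choice, and no conclusion is drawn from the contrast with the +1667 kb DHS.

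The +1651 kb DHS (chr15:63636605-63637105) ran higher in Ikaros cells throughout. At 18 h it read 1.73, 2.11 and 3.25 in Control and 3.55, 4.06 and 3.34 in Ikaros cells, with a difference of 1.29 (SE 0.31, limma adjusted p = 0.0441). The groups did not overlap, although Control replicate 6 came close to Ikaros replicate 6. With a replicate block the limma adjusted p was 0.0625. The call was lost without any single 18 h library other than Control replicate 6 (0.97 to 1.44).

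At the other times the difference at +1651 kb was between 0.48 and 0.98, and none of these passed. Ikaros means stayed between 3.56 and 3.69 over the 6 times (time in Ikaros cells, F = 0.04), and Control means lay between 2.37 and 3.19. The +1626 kb DHS (chr15:63611078-63611582), singled out after its values had been seen, also had the higher mean in Ikaros cells at all 6 times, by 0.21 to 0.74, with a limma adjusted p of 0.0513 at 0 h and 0.112 at 24 h.

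The +1694 kb DHS (chr15:63678784-63679315) differed at 0 h. It read 4.84, 4.29 and 4.42 in Control and 5.51, 5.22 and 5.44 in Ikaros cells, a difference of 0.87 (SE 0.21, limma adjusted p = 0.00746). At 24 h the difference was 0.34 (SE 0.21, limma adjusted p = 0.492). Its change from 0 h to 24 h, -0.54 (SE 0.30), did not pass.

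Fam49b encodes a regulator of actin through Rac. Its promoter DHS (chr15:63997922-63998576) read 4.67, 4.69 and 4.31 in Control 0 h and 5.16, 5.54 and 5.73 in Ikaros 0 h cells. The difference of 0.92 (SE 0.18) had a limma adjusted p of 0.00182. At 24 h the lines overlapped, with 5.28, 4.74 and 5.02 in Control and 5.01, 5.17 and 4.84 in Ikaros cells. The move from 0 h to 24 h was -0.93 (SE 0.26, limma adjusted p = 0.0324). With the trends removed the 0 h difference was -0.04 and the move 0.06. The move was also lost without replicate 6 of any of the 4 groups or without either 24 h replicate 4 (-0.93 to -0.79).

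**Figure D4:**
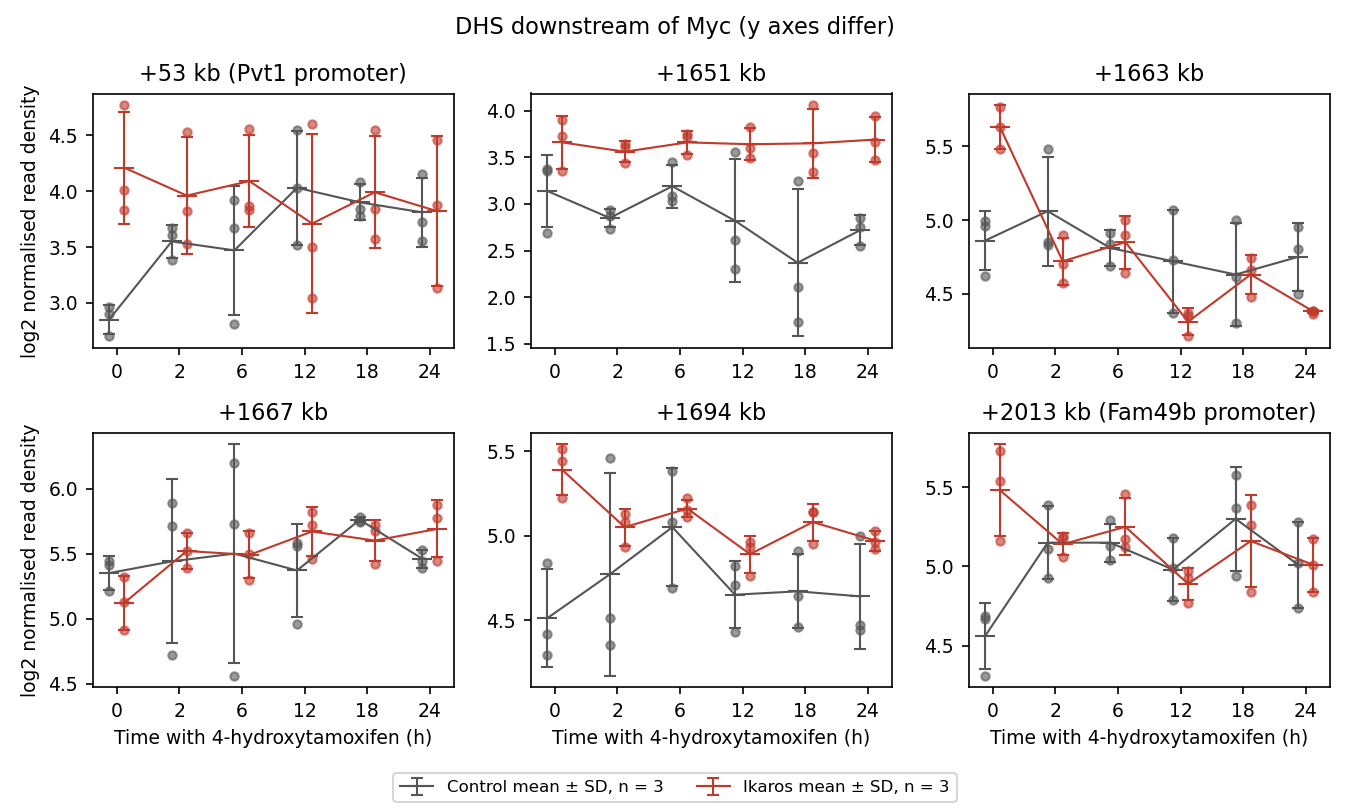
Log2 normalised read density (y axes, which differ between panels) by time with 4-OHT in h (x axes) for the 6 DHS downstream of Myc that passed a test between the lines or had the highest mean; grey is Control and red Ikaros, points are libraries, marks means and bars SD (n = 3). In the +1663 kb panel the Ikaros mean is 5.63 at 0 h and 4.38 at 24 h, while the +1651 kb Ikaros means stay between 3.56 and 3.69.

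At 24 h the largest positive differences in the window were 1.09 (SE 0.42, limma adjusted p = 0.195) at +796 kb and 0.98 (SE 0.31, 0.113) at +1651 kb, and neither passed. The largest negative ones were at the Myc promoter and the +713 kb DHS.

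Over the 36 libraries, the DHS whose values ran most like the Myc promoter were those at +1426 kb (Pearson r = 0.75), +1663 kb (0.75) and the Fam49b promoter (0.35). These correlations are descriptions, since libraries share groups, batches and the authors' noise removal. Within the 18 Ikaros libraries r was 0.88, 0.93 and 0.65, and within the 18 Control libraries 0.33, 0.58 and 0.51. The median r over the other 44 DHS was -0.02, and 20 of them were above 0. Over all other DHS the median was -0.06 and the 5th and 95th percentiles were -0.54 and 0.57. The +1426 kb DHS (chr15:63410959-63411565) had Ikaros means of 4.04 at 0 h and 3.45 at 24 h. Its line differences did not pass at any time, and its change from 0 h to 24 h was -0.59 (SE 0.27, limma adjusted p = 0.172).

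Promoter DHS elsewhere reached higher values of r: 0.89 at Gm11947, 0.89 at Fads2, a fatty acid desaturase gene, and 0.87 each at the Mir23a cluster with Gm26532, at Gm43020 and at Pip4k2b with Mir8102.

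**Figure D5:**
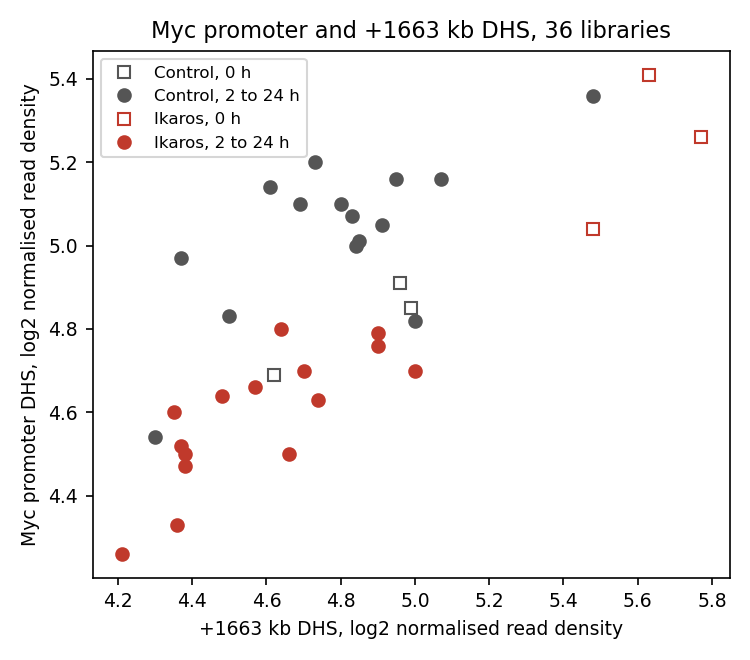
Log2 normalised read density of the Myc promoter DHS (y axis) against that of the +1663 kb DHS (x axis) in the 36 libraries; grey is Control, red Ikaros, open squares 0 h and filled circles 2 to 24 h. The 3 Ikaros 0 h libraries lie at the right, between 5.48 and 5.77 on the x axis, and the Ikaros libraries from 2 h onwards lie at or below 4.80 on the y axis.

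Genes of the wider Myc network, which include Max and several of its partners, and 12 known Myc target genes were followed by their promoter DHS. Of 12 network genes, 10 had a promoter DHS, 15 DHS in all. At 0 h 1 of the 15 passed, Mxd3, a Max partner that opposes Myc, with a difference of 0.61 (SE 0.19, limma adjusted p = 0.0331), where 12.9% of all DHS passed. None of the 15 passed at a later time (0.195% to 1.33% of all DHS) or for the change from 0 h to 24 h (6.26%). Their median difference was 0.15 at 0 h and -0.22 at 24 h, when the Ikaros mean was the lower in 15 of 15. Of all 13657 promoter DHS 56.8% were lower in Ikaros cells at 24 h, with a median of -0.05.

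The 12 target genes had 17 promoter DHS. At 0 h, where 12.9% of all DHS passed and 23.1% of promoter DHS were lower in Ikaros cells, 6 of them passed, all higher in Ikaros cells: Srm, a spermidine synthase, by 1.10, Cdk4, a cell cycle kinase, by 0.97, Odc1, which makes putrescine, by 0.90, Tfrc, the transferrin receptor, by 0.69, Eno1, a glycolytic enzyme, by 0.61 and Npm1, a nucleolar protein, by 0.58. At 12 h and 24 h 1 passed, a DHS of Ccnd2, which encodes cyclin D2, with -0.84 (SE 0.21, limma adjusted p = 0.0417) and -0.90 (SE 0.21, 0.0287). The change from 0 h to 24 h, which passed in 6.26% of all DHS, was negative and passed in 5 of 17, by -1.19 at Srm, -1.13 at Cdk4, -1.07 at Ccnd2, -1.04 at Eno1 and -0.90 at Ldha, a lactate dehydrogenase subunit. The interaction passed at Cdk4 and Eno1, and in 1.1% of all DHS. The median change of the 17 was -0.82, beside -0.42 for all promoter DHS. Promoter DHS as a class had a median difference of 0.34 at 0 h, and the part of that shift in the values of these genes was not tested. For both lists the shares that passed are of all DHS, and such shares of promoter DHS alone were not computed.

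The 300 bases at the centre of each DHS were searched on both strands for short motifs. The Ikaros core GGGAA occurred in 32 of 45 DHS (71.1%), against 61.5% of all DHS, and the longer TGGGAA, which contains it, in 18 (40.0%), against 24.7%. The EBF1 core CCCNNGGGA occurred in 22.2% against 10.1%, the Runx motif TGTGGT in 37.8% against 27.3% and the PU.1 motif GAGGAAG in 26.7% against 16.9%. The E-box CACGTG and the forkhead motif GTAAACA were found in 0 of the 45 windows, against 6.73% and 3.65% of all DHS. The CTCF consensus occurred in 3 of 45 (6.67%), against 13.1%. The central 300 bases of the Myc promoter DHS held 2 GGGAA cores and 0 matches of the others. The rest of that DHS, which is 565 bp wide, was not searched. In DHS narrower than 300 bp the searched bases ran past the edges. Promoter DHS make up 25.9% of all DHS and are fewer here, and the shares were not adjusted for this.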

How the data were processed

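Per the study's methods, the authors aligned DNase-seq reads to mm10, used HOMER for peaks of each replicate, took a consensus list of DHS, counted reads, applied RPKM and TMM scaling and then corrected with ARSyN, which takes structured noise out of a table. Values were deposited as log2; read in base 2 they sum to between 369486 and 432754 RPM per library, while base e would exceed a whole library. The study's methods state a minimum read depth for each replicate and a filter on DHS with few reads; the depth reached by single libraries is not given in the sources used here, so no counting interval was computed. Coordinates are as deposited, and whether starts count from 0 or 1 is not stated. Annotation was GENCODE vM21 (basic) and sequence GRCm38.

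Groups came from the labels. limma 3.58.1 in R 4.3.3 was fitted to all 52788 DHS with 12 group means (eBayes with an intensity trend). Adjusted p-values are two-sided limma tests with Benjamini-Hochberg adjustment over all DHS, threshold 0.05, and F-tests served for time and interaction. The fit was also run on simulated data with independent noise. The deposited values went through the authors' noise removal, so that run does not check the p-values given here. Replicate numbers mark a shared batch in the labels; deviations from group means correlated at a median of -0.0103 for libraries of the same number (198 pairs) and 0.00789 for different numbers (396 pairs). Alternatives were a replicate block, no intensity trend, a spread per group, only the groups compared, quantile normalization, trends in level, GC content and width taken out (splines with 4 degrees of freedom), DHS of low mean level left out, and leaving out libraries.

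DHS named are those on the Myc and Pvt1 promoters, those past the threshold, the 6 highest and 2 lowest means, the 3 DHS and 5 promoters elsewhere most like the Myc promoter, and the 2 largest differences each way at 24 h. Members, lists and motifs were chosen with earlier results of these data known. The networks held Mycn, Mycl, Max, Mxd1, Mxd3, Mxd4, Mxi1, Mnt, Mga, Mlx, Mlxip and Mlxipl, and the targets Ncl, Npm1, Odc1, Cad, Cdk4, Ccnd2, Nop56, Fbl, Srm, Ldha, Eno1 and Tfrc. Other markers sought were Cd3e, Cd4, Cd8a, Gata1, Elane, Mpo, Myog, Myod1 and Klf1. A further B-lineage marker is not reported here.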

Additional observations from a re-analysis of the deposited data

Results flagged for a closer look

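The difference between the lines changed from 0 h to 24 h by a test of that change itself at 3 DHS of the window. It moved by -1.02 at the Myc promoter, by -1.14 at the +1663 kb DHS and by -0.93 at the Fam49b promoter. The Myc promoter also passed the interaction of line and time (F = 7.32). All of these rest on the 0 h cells, which were collected separately: from 2 h to 24 h none of the 45 DHS passed, with 3 at an unadjusted limma p under 0.05 (2.85% of all DHS). Groups of 3 libraries are too small for a check of single outlying libraries.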

How the results depend on the processing

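The 16 alternatives left the sign of the Myc promoter difference as it was at 2, 6, 12, 18 and 24 h, and 22 alternatives left that of its changes from 0 h and 2 h to 24 h. At 0 h its adjusted p was 0.0674 with no intensity trend, 0.0611 with a replicate block, 0.187 with a spread per group and 0.325 with only the groups compared, at an unaltered 0.42. The 0 h difference itself was 0.23 after quantile normalization (limma adjusted p = 0.314) and -0.01 with the trends removed (0.974). With only the groups compared, -0.65 at 12 h, -0.60 at 24 h and the change of -1.02 had adjusted p of 0.141, 0.0793 and 0.0642. With the trends removed they were -0.42, -0.43 and -0.42, and the Fam49b promoter gave -0.04 at 0 h and a change of 0.06. Removing the trends takes out shifts that DHS of like GC content, level and width share, and the cause of the other losses was not tested.

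The number of DHS past the threshold at 0, 12, 18 and 24 h and for the change was 0 each with only the groups compared. With the trends removed it was 3 at 0 h, 0 at 12, 18 and 24 h and for the change, and 1 for time in Ikaros cells. With a spread per group it was 2 at 0 h, 2 at 18 h and 4 at 24 h. At 18 h it was 0 with a replicate block, after quantile normalization and without DHS of low mean level, which leaves out the +1651 kb DHS. The interaction count was 0 with no intensity trend, a replicate block, a spread per group, quantile normalization, the trends removed or without the 0 h libraries, and time in Ikaros cells gave 0 without the 0 h libraries. The replicate block changed no other call among the results with alternatives.

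Leaving out libraries gave Myc differences of 0.27 to 0.56 at 0 h, -0.54 to -0.29 at 2 h, -0.34 to -0.27 at 6 h, -0.72 to -0.55 at 12 h, -0.39 to -0.09 at 18 h and -0.71 to -0.48 at 24 h, and changes of -1.28 to -0.87 from 0 h and -0.27 to -0.06 from 2 h. The counts ranged from 1 to 6 at 0 h, 0 to 2 at 2 h, 0 to 0 at 6 h, 0 to 1 at 12, 18 and 24 h and 0 to 3 for the change, and were 0 for the interaction and for time in either line. The 2 DHS at 2 h came without Control replicate 5. The change at Myc was lost without replicate 4 (-0.91) or 6 (-0.87) of all groups. Adjusted p over the alternatives ran from 0.034 to 0.974 at 0 h, 0.0161 to 0.291 at 12 h, 0.00494 to 0.305 at 24 h and 0.00534 to 0.258 for the change. The depth reached by single libraries is not known, so the counting error of low and narrow DHS was not computed.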
